A study of Homo sapiens with 4 samples.

Results

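The genes described here are 9 integrins of epithelial cells, 5 alpha chains (ITGA2, ITGA3, ITGA5, ITGA6 and ITGAV) and 4 beta chains (ITGB1, ITGB4, ITGB5 and ITGB6), as seen by iCLIP of the RNA-binding protein PDCD4. They were chosen by symbol, and every listed crosslink site whose gene label held exactly one of these symbols was used. They are 9 of the 14416 genes with a site in either list, and they held 531 of the 158922 PDCD4 sites and 251 of the 111361 IgG sites. The study asked which RNAs PDCD4, a tumour suppressor, contacts in untransformed breast epithelial cells. Wild-type cells of MCF10A, a cell line of untransformed human breast epithelium, were cross-linked with UV light, and RNA was recovered with an antibody against PDCD4 or with control IgG, in 2 replicates each. All cells grew in the same medium with horse serum, epidermal growth factor, insulin, hydrocortisone and cholera toxin, and the labels name no other treatment. The deposited data are 1 list of 1-nt crosslink sites for each immunoprecipitation, with its replicates pooled, and the score of a site is the number of cDNAs that ended there.

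Integrins are receptors of the cell surface in which an alpha and a beta chain pair, bind the extracellular matrix outside the cell and connect to the cytoskeleton inside. ITGB1 pairs with ITGA2, a collagen receptor chain, with ITGA3 and ITGA6, laminin receptor chains, and with ITGA5, the fibronectin receptor chain, while ITGAV pairs with ITGB5, ITGB6 and also ITGB1. ITGB4 pairs with ITGA6 only and is the integrin of hemidesmosomes, the anchors of basal epithelial cells, where its unusually long cytoplasmic tail binds plectin.

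The crosslink sites that carry the results below are shown as the 29 nt of the transcribed strand around them, 5′ to 3′, with the cross-linked nucleotide in capitals (GRCh38). These stretches follow the genome, so those of ITGB1 exon 4 and ITGB5 exon 15 begin in the intron before the exon. The first group holds the highest exonic PDCD4 site of each gene that had one with a score greater than 5. They lie in coding exon 7 of ITGA3 (chr17:50072047-50072075, plus strand, score 10, codon 345), coding exon 28 of ITGB4 (chr17:75750150-75750178, plus strand, score 10, codon 1124), coding exon 4 of ITGB1 (chr10:32930023-32930051, minus strand, score 6, codon 54) and the 3′UTR of ITGA6 (chr2:172505094-172505122, plus strand, score 6).
ITGA3 exon 7: gccatctatgtcttCatgaaccaggcggg
ITGB4 exon 28: cacagccaccccctCacggcgacctgggc
ITGB1 exon 4: catttagacattttTacaggaaggaatgc
ITGA6 3′UTR: aactataacctctcCttcatgacagcctc

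The second group holds the highest intronic site of the 3 genes with the most intronic PDCD4 cDNAs, in intron 16 of ITGB4 (chr17:75736904-75736932, score 6), intron 1 of ITGA3 (chr17:50061210-50061238, score 6) and intron 1 of ITGA6 (chr2:172431529-172431557, score 5), all on the plus strand.
ITGB4 intron 16: aacccaggcggtggGacacagtctggccc
ITGA3 intron 1: ctgccctgccctctAtcagtaggcataag
ITGA6 intron 1: tctttgcctgcctcCaccccattcccttc

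A last group was chosen after its values were seen, from stretches with many more PDCD4 than IgG cDNAs. It shows a site of the ITGA3 5′UTR (chr17:50056226-50056254, plus strand, score 5), a site in intron 32 of ITGB4 (chr17:75753166-75753194, plus strand, score 5), the highest exonic site of ITGB5 (chr3:124763691-124763719, minus strand, score 5, codon 773) and, for contrast, the highest exonic IgG site of all 9 genes, in exon 31 of ITGB4 (chr17:75752269-75752297, plus strand, score 7, codon 1301).
ITGA3 5′UTR: caggaagatagaccCacggatcttaggaa
ITGB4 intron 32: gggcacgtatatctTttgtattttcttct
ITGB5 exon 15: ggcttcaaatccatTatacagaaagccta
ITGB4 exon 31, IgG list: acggtgaaggcgcgCaacggggccggctg

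The PDCD4 list summed to 409308 cDNAs with a mean score of 2.58 per site, and the IgG list to 276139 with a mean of 2.48. Exons held 51.0% of all PDCD4 cDNAs and 34.0% of all IgG cDNAs, so an exonic gain in a single gene has to be read against that of all genes. The authors had subtracted IgG crosslink sites from the PDCD4 replicates, and 721 positions stood in both deposited lists. Of the integrin sites 1 position did, in the ITGA6 3′UTR with a score of 2 in each list. Because of the subtraction, these counts do not measure how far the 2 immunoprecipitations share positions. Markers of basal breast epithelium had sites in the PDCD4 list, among them KRT5 with 352 cDNAs and TP63 with 28. All 7 of these markers had at least 3 cDNAs, and the basal keratin KRT14 had only 3. Of the 8 fibroblast, leukocyte and endothelial markers, CD14 alone had any cDNA, 2 in the IgG list. The luminal keratins KRT8 and KRT18 had 38 and 27 PDCD4 cDNAs. Values per replicate were not analysed here, so no test between PDCD4 and IgG could be made, and every interval below is a 95% interval of counting error only. PCR duplicates, the spread between cultures and the amount of each RNA in the cell are not in it. RNA abundance was not analysed here, and its part in the ratios was not tested. As in any bulk sample, more cells that hold an RNA and more of it per cell cannot be told apart.

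The 9 integrins together held a larger share of the PDCD4 list than of the IgG list, and ITGA3 and ITGB4 accounted for most of it. Their summed score was 1495 cDNAs in the PDCD4 list, or 36.5 per 10000 cDNAs of that list, against 627 cDNAs or 22.7 per 10000 in the IgG list. The log2 ratio of the shares, after 1 cDNA was added to each sum, was 0.68 (0.55 to 0.82). ITGA3 and ITGB4 held 62.3% of the integrin cDNAs recovered with PDCD4 and 38.3% of those recovered with IgG. Without ITGB4 the summed log2 ratio was 0.48 and without ITGA3 it was 0.42. Each of these sums still holds the other leading gene, and the ratio without both was not computed. The alpha chains without ITGA3 had a log2 ratio of -0.23 (-0.49 to 0.04). The beta chains without ITGB4 had one of 0.19 (-0.09 to 0.47). Neither remaining group thus had a gain beyond counting error. Among the other genes only ITGB5 had an interval wholly above 0, and ITGA5 had one wholly below it. The ratios of the single genes ran from -1.004 in ITGA5 to 1.44 in ITGA3. Their median was close to 0, and that of the 7305 genes with at least 20 cDNAs over both lists was -0.10.

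**Figure D1:**
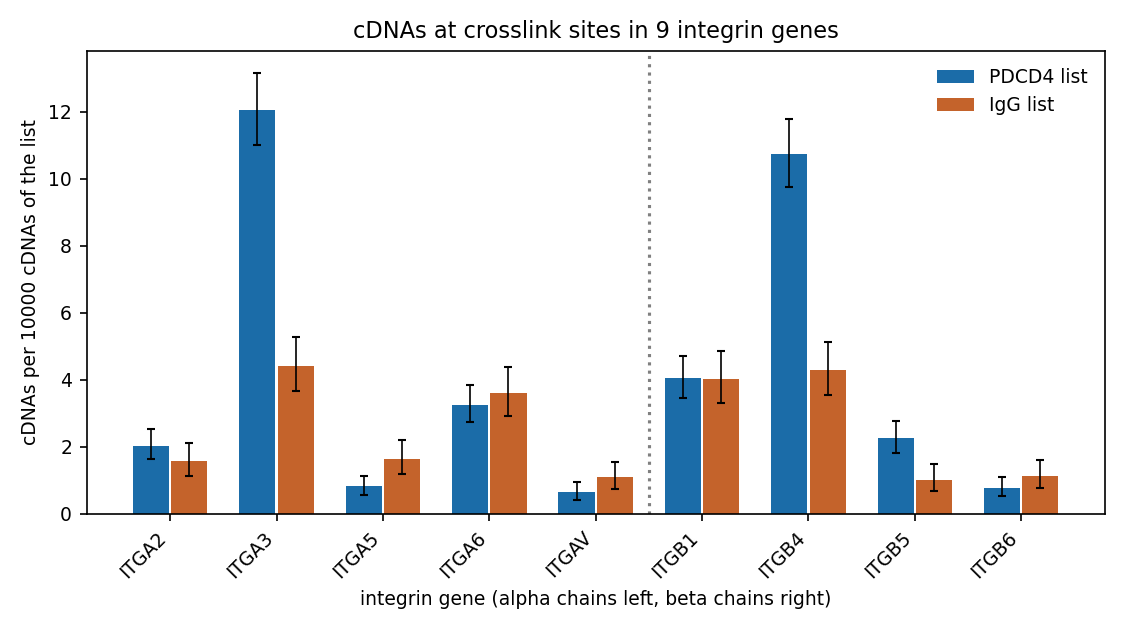
The bars give the cDNAs at crosslink sites of each integrin gene per 10000 cDNAs of its list, for the PDCD4 list (blue) and the IgG list (orange), with 95% Poisson intervals. ITGA3 (12.04 against 4.42) and ITGB4 (10.7 against 4.27) stand above all other genes in the PDCD4 list, whereas the 2 bars of ITGB1 are of equal height.

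ITGA3, the alpha chain of a laminin receptor, had the largest sum, with 493 PDCD4 cDNAs from 161 sites and 122 IgG cDNAs from 41 sites. Its log2 ratio was 1.44 (1.16 to 1.74), and its PDCD4 sum ranked 41 among all genes. ITGB4, the hemidesmosomal beta chain, followed with 439 cDNAs at 141 PDCD4 sites against 118 at 44 IgG sites, a log2 ratio of 1.32 (1.03 to 1.63). ITGB5, a vitronectin receptor chain, had far fewer cDNAs but a similar ratio, with 92 against 28 and a log2 ratio of 1.11 (0.52 to 1.81). These 3 of the 9 genes passed a log2 ratio of 1, against 16.4% of all genes compared, and the same 3 had an interval wholly above 0, against 20.1% of all genes.

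The collagen receptor chain ITGA2 had 83 PDCD4 and 43 IgG cDNAs (log2 ratio 0.37, -0.17 to 0.95). ITGB1, which pairs with all 5 of these alpha chains, had 165 and 111 cDNAs, and its share was the same in both lists (ratio 1.00, log2 interval -0.35 to 0.36). ITGA6 had 133 and 99 cDNAs and a log2 ratio of -0.15 (-0.53 to 0.25). For these genes the intervals included 0. ITGB6, with 31 cDNAs in each list, had a log2 ratio of -0.57 (-1.33 to 0.20). ITGAV, with 26 against 30, had one of -0.77 (-1.59 to 0.03).
ITGA5, the fibronectin receptor chain, was the only integrin of the 9 whose share was lower in the PDCD4 list beyond counting error. It had 33 PDCD4 cDNAs against 45 IgG cDNAs, a log2 ratio of -1.004 (-1.71 to -0.34). A log2 ratio of -1 or less was reached by 16.1% of all genes and an interval wholly below 0 by 23.8%, so 1 of 9 is not above the background. The counts of ITGA5, ITGAV and ITGB6 are small, and differences between these 3 genes are within counting error. From the highest to the lowest log2 ratio the order was ITGA3, ITGB4, ITGB5, ITGA2, ITGB1, ITGA6, ITGB6, ITGAV and ITGA5, and the intervals of every pair of neighbours in it overlapped.

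Sites with a score greater than 5 were few. The PDCD4 list had 12 in these genes, 5 in ITGA3, 5 in ITGB4, 1 in ITGA6 and 1 in ITGB1, which is 2.26% of their sites against 1.48% of all PDCD4 sites. The IgG list had 3, of which 2 lay in ITGB4 and 1 in ITGA6. That is 1.20% of the integrin IgG sites against 0.69% of all IgG sites, so the integrin share was the higher one in both lists. The highest PDCD4 score was 10, reached once in ITGA3 and once in ITGB4 at the coding sites printed above. Over such sites alone the share of ITGB4 was lower in the PDCD4 list (35 against 13 cDNAs, log2 ratio -0.59, -1.48 to 0.51), whereas ITGA3 had 37 cDNAs against none.

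Alpha and beta chains were then compared as groups. The alpha chains had 768 PDCD4 and 339 IgG cDNAs, a log2 ratio of 0.61 (0.43 to 0.80). The beta chains had 727 and 288 cDNAs, a log2 ratio of 0.77 (0.57 to 0.97). The difference of beta minus alpha was 0.16 (-0.11 to 0.43), within counting error. Each group rested on 1 gene. Without ITGA3 the alpha chains had a log2 ratio of -0.23 and the difference was 0.99 (0.67 to 1.32), and without ITGB4 the beta chains had 0.19 and the difference was -0.42 (-0.75 to -0.09). In exons the log2 ratios were 1.01 for alpha and 1.01 for beta chains (difference interval -0.42 to 0.42). In introns beta minus alpha was 0.43 (0.07 to 0.79), but without ITGB4 it turned to -0.74 (-1.18 to -0.30). Whether the difference itself depends on the region was not tested.

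Chains that form a receptor together were compared in 8 known pairs of a beta with an alpha chain, and in 4 of them the log2 ratios differed beyond counting error. ITGB4 stood above its only partner ITGA6 by 1.46 (0.99 to 1.94). ITGB5 stood above ITGAV by 1.88 (0.91 to 2.85), and ITGB1 stood above ITGA5 by 1.00 (0.27 to 1.74). In the laminin receptor of ITGA3 and ITGB1 the alpha chain was the higher one, with a difference of beta minus alpha of -1.44 (-1.89 to -0.99). For ITGB1 with ITGA2, ITGA6 and ITGAV and for ITGB6 with ITGAV the intervals included 0, the widest of them, ITGB6 minus ITGAV, running from -0.84 to 1.24. These pairs share genes, so the 8 differences are not independent of each other. The same difference was not computed for pairs of other genes, so 4 of 8 is not a result about receptor partners. Among single genes, 20.1% of all compared had an interval wholly above 0 and 23.8% one wholly below 0.

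**Figure D2:**
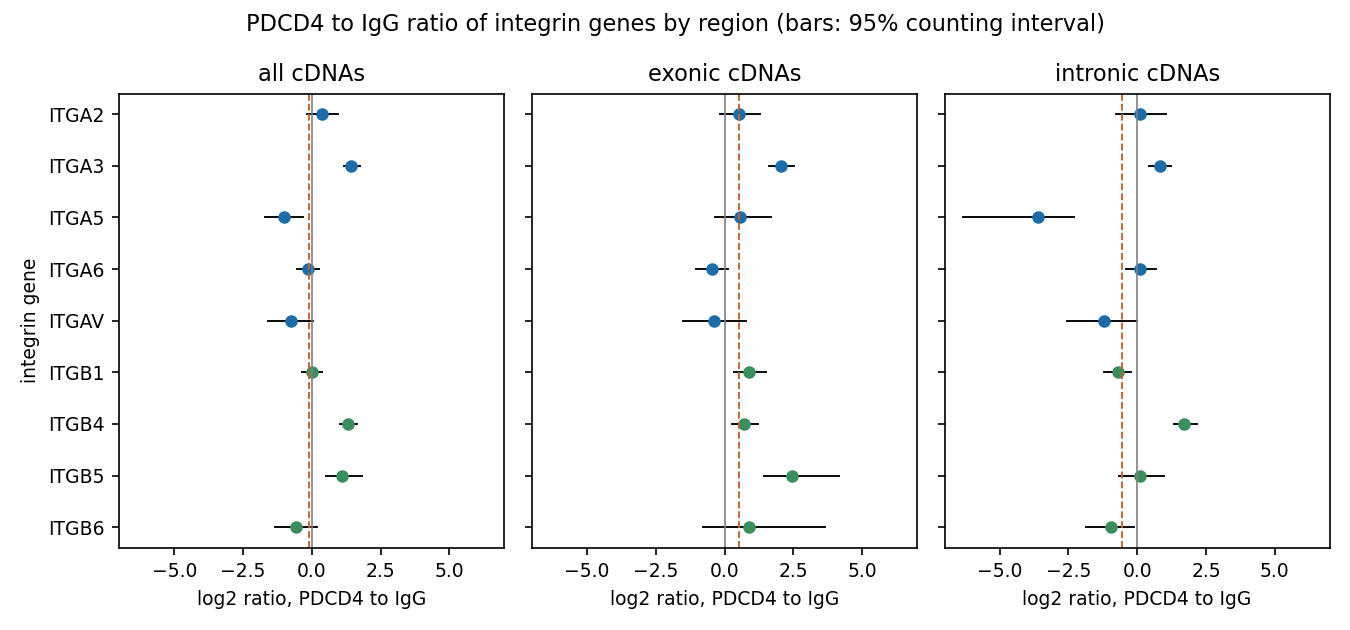
Each point is the log2 ratio of PDCD4 to IgG shares for 1 integrin gene, over all, exonic or intronic cDNAs, with its 95% counting interval. Alpha chains are blue and beta chains green, and the dashed line is the median of all genes compared (-0.10, 0.52 and -0.57). ITGB4 is the only gene right of 1 among intronic cDNAs, and ITGA5 lies farthest to the left there.

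Exons held 755 of the 1495 integrin cDNAs in the PDCD4 list, 50.5% (48.0% to 53.0%), and 251 of 627 in the IgG list, 40.0% (36.3% to 43.9%). The exonic log2 ratio was 1.02 (0.81 to 1.23) and the intronic one 0.41 (0.23 to 0.59), a difference of 0.61 (0.34 to 0.88). Over all sites of the lists the same difference was 1.03 (1.01 to 1.04), so the shift towards exons in PDCD4 was smaller in the integrin sums than in the lists as a whole. The exonic share was higher in PDCD4 for alpha chains (58.7% against 44.2%) than for beta chains (41.8% against 35.1%). The beta value rested on ITGB4, the only beta chain with a lower exonic share in PDCD4 (32.6% against 49.2%). The share was 57.6% against 30.6% in ITGB1, 60.9% against 21.4% in ITGB5 and 32.3% against 9.68% in ITGB6. Per kb, exons held 8.91 PDCD4 cDNAs and introns 1.15, a log2 ratio of 2.96 (2.81 to 3.10), and in the IgG list 2.96 and 0.584, a log2 ratio of 2.34 (2.11 to 2.57). The intronic gain rested on ITGB4, and so did the smaller shift towards exons. Without ITGB4 the intronic log2 ratio of the other 8 genes was -0.08 (-0.29 to 0.14) and the exonic one 1.09 (0.86 to 1.34). By gene, the median of exonic minus intronic was 1.01 for the 8 integrins compared, against 1.03 for all genes compared.

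By gene, an exonic ratio above the intronic ratio was the common state of these lists. It held for 79% of all genes with at least 20 exonic and 20 intronic cDNAs, with a median difference of 1.03, and for 6 of the 8 integrins among them. The interval of the difference lay above 0 in 4 of these 8 (ITGA3, ITGA5, ITGB1 and ITGB5), against 41.6% of all such genes, so neither count stands apart from the background. ITGB5 had 56 exonic PDCD4 cDNAs against 6 IgG cDNAs (log2 ratio 2.46, 1.44 to 4.16), while its introns had 36 and 22 (0.12, -0.66 to 0.98). ITGA3 had 297 against 48 in exons (2.04, 1.62 to 2.53) and 196 against 74 in introns (0.83, 0.44 to 1.24). ITGB1 exons had 95 PDCD4 and 34 IgG cDNAs (0.89, 0.34 to 1.52), and its introns had 70 and 77 (-0.70, -1.19 to -0.22). Both intervals hold the median of all genes, which was 0.52 for exonic and -0.57 for intronic cDNAs, so ITGB1 was like the background in each.
ITGA5 had 30 against 13 exonic cDNAs (0.58, -0.34 to 1.70), near that median, and 3 against 32 intronic cDNAs (-3.61, -6.33 to -2.31), below it. A log2 ratio of 1 in exons was reached by ITGA3 and ITGB5, 2 of the 8 integrins with at least 20 exonic cDNAs, against 32.8% of all such genes. This count is no higher than the background. With ITGB1 and ITGB4, 4 of the 8 had exonic intervals above 0, against 34.7% of all such genes. When exonic cDNAs were set against the exonic total of each list instead, the summed log2 ratio of the 9 genes was 0.42 (0.22 to 0.64). On that scale ITGB5 had 1.86 (0.85 to 3.57), ITGB1 had 0.29 (-0.26 to 0.93), ITGB4 had 0.13 (-0.31 to 0.61) and ITGA6 had -1.05 (-1.63 to -0.47).

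ITGB4 had the higher ratio in its introns. Its exons had 143 PDCD4 and 58 IgG cDNAs (0.72, 0.28 to 1.20), and its introns had 296 and 60 (1.72, 1.33 to 2.16). The difference of exonic minus intronic was -0.996 (-1.59 to -0.40), and ITGB4 alone of the integrins had such an interval below 0, as did 3.08% of all genes compared. It was also the only one of 9 integrins with an intronic log2 ratio of at least 1, which 9.13% of all genes with at least 20 intronic cDNAs reached. Exons held 32.6% of its PDCD4 cDNAs (28.4% to 37.1%) and 49.2% of its IgG cDNAs (40.3% to 58.1%).

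**Figure D3:**
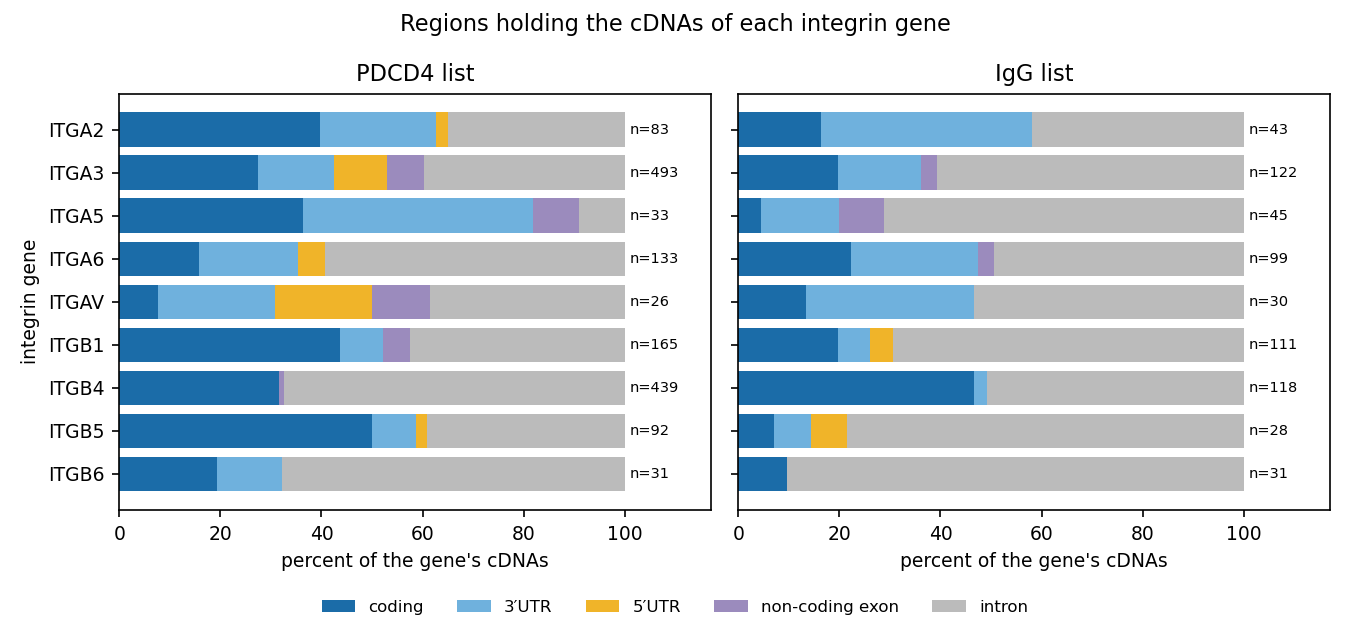
Each bar divides the cDNAs of 1 gene into coding sequence, 3′UTR, 5′UTR, exons of non-coding transcripts and introns, for the PDCD4 list (left) and the IgG list (right), with the number of cDNAs at its end. The intronic part (grey) is larger in the PDCD4 list than in the IgG list for ITGB4 (67.4% against 50.8%) and ITGA6 (59.4% against 49.5%) and smaller for the other 7 genes.

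The region within exons differed between genes. Coding sequence held 139 of the 143 exonic PDCD4 cDNAs of ITGB4, and no PDCD4 site lay in its UTRs. ITGB5 had 46 coding PDCD4 cDNAs against 2 in the IgG list, and ITGB1 had 72 against 22. ITGA6 was level, with 21 coding cDNAs against 22 and 26 3′UTR cDNAs against 25. ITGA5 had few cDNAs in either place, 12 coding and 15 in the 3′UTR in the PDCD4 list, against 2 and 7 in the IgG list. ITGAV had 2 coding PDCD4 cDNAs, 6 in the 3′UTR and 5 in the 5′UTR, and ITGB6 had 6 coding and 4 in the 3′UTR.

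ITGA3 was the gene with a filled 5′UTR. The PDCD4 list had 14 sites with 52 cDNAs there, 137 cDNAs per kb over 379 nt, with scores from 2 to 5, and the IgG list had none. With 3 IgG cDNAs put in place of none, the share was 11.7-fold higher in the PDCD4 list. The lists hold called sites only, so this fold is not a lower bound. The stretch of chr17:50056229-50056314 alone held 8 of these sites and 29 cDNAs, the densest 100 nt of the gene in the PDCD4 list, and the printed 5′UTR sequence lies in it. No other member had more than 7 PDCD4 cDNAs in its 5′UTR. Exon 7 of ITGA3, 197 nt of coding sequence with the top site, held 27 cDNAs at 5 sites against none in the IgG list. The last exon, exon 26, held 98 cDNAs at 37 sites against 24 at 8. In all, PDCD4 sites fell into 15 of the 26 ITGA3 exons and IgG sites into 6.

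**Figure D4:**
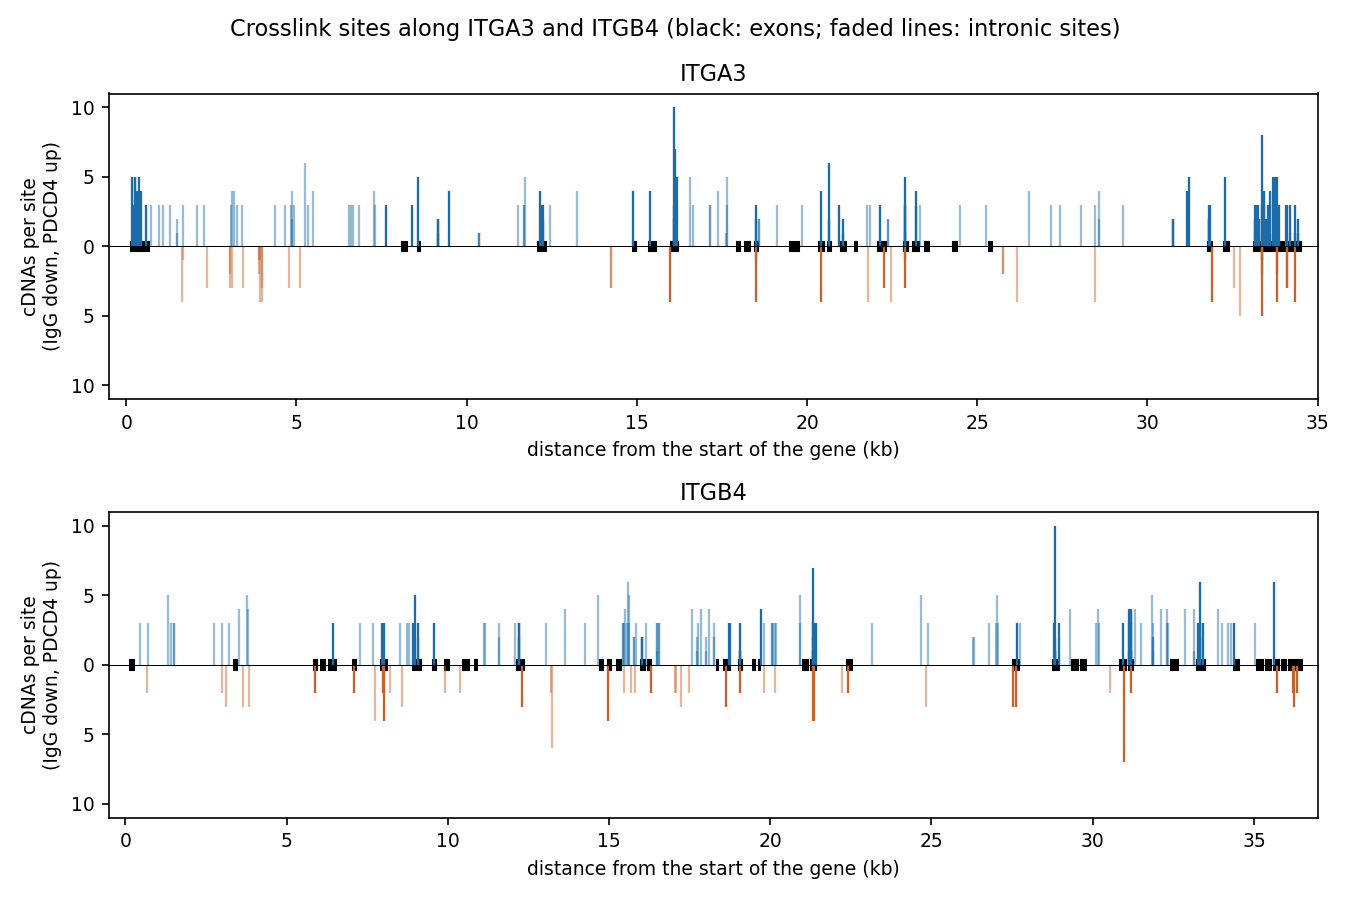
Each line is a crosslink site of ITGA3 or ITGB4 at its distance from the start of the gene (kb), with its cDNAs upwards for PDCD4 and downwards for IgG, and black boxes are the exons of the canonical transcript (dark lines between boxes lie in exons of other transcripts). ITGA3 sites crowd at both ends of the gene and around a site of 10 cDNAs in exon 7, and ITGB4 sites run through exons and introns of the whole gene with a site of 10 cDNAs in exon 28.

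Introns of ITGA3 and ITGB4 carried far more PDCD4 cDNAs per length than those of the others. Intronic PDCD4 cDNAs per kb were 9.96 in ITGB4 and 7.93 in ITGA3, 1.09 in ITGA6 and at most 0.673 in the other 6 genes. ITGA5, the shortest of the 9 genes with 24006 nt, had 0.18 per kb. In the IgG list ITGA3 (2.99 per kb) and ITGB4 (2.02) were again the highest, followed by ITGA5 (1.93). In the canonical transcript of ITGB4, PDCD4 sites fell into 18 of the 39 introns and IgG sites into 13. Intron 18, of 2027 nt, had the most cDNAs, 39 against 9. Intron 16, of only 627 nt, had 37 against 6, which is 59.0 PDCD4 cDNAs per kb, and it holds the top intronic site printed above. Introns 32 to 35, which together span 3251 nt, had 59 PDCD4 cDNAs at 19 sites and none in the IgG list. With 3 IgG cDNAs put in place of none for these introns together, the PDCD4 share was 13.3-fold higher, again not a lower bound. These introns were picked after their values were seen. The intronic cDNAs of ITGB4 were thus spread over many introns, and the one with the most held 39 of 300.

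The first intron held the most intronic PDCD4 cDNAs in 4 of the 9 genes, ITGA2, ITGA3, ITGA6 and ITGB1. In each of these it was also the longest intron, with 37215, 7431, 37568 and 22586 nt. The part of length in these counts was not tested. In ITGA2 it held 10 of 29 (10 of 18 in the IgG list). It held 94 of 232 intronic PDCD4 cDNAs in ITGA3 (40 of 78 in the IgG list), 54 of 79 in ITGA6 (25 of 52) and 54 of 85 in ITGB1 (61 of 82), counted over canonical introns. In ITGA5 the first intron had 20 IgG cDNAs and no PDCD4 cDNA, and in ITGAV it had 2 PDCD4 and 5 IgG cDNAs. ITGB5 and ITGB6 had no cDNA in either list in their first introns, which are 13399 and 744 nt long. Intron 10 of ITGB5, its longest with 22475 nt, had 17 against 12.

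Coding sites were placed along the encoded proteins, with the membrane-spanning segment found as the most hydrophobic stretch. In most integrins the cytoplasmic tail after this segment is short, at most 59 residues in the 8 chains other than ITGB4. In ITGB4 it has 1090 of 1822 residues (59.8%), and its codons held 102 of the 139 coding PDCD4 cDNAs, 73.4% (65.5% to 80.0%), against 34 of 53 IgG cDNAs, 64.2% (50.7% to 75.7%). These intervals overlap, so the lists could not be told apart here. Within it, exon 25 held 19 PDCD4 against 8 IgG cDNAs, exon 28 had 20 against none, exon 32 had 20 against 2 and exon 34 had 17 against none. The highest exonic IgG site, in exon 31, lies in the same part, and exon 31 had 3 PDCD4 cDNAs against 7.
In ITGB5 the tail is 58 residues long (7.26% of the protein) and held 12 of 46 coding PDCD4 cDNAs, 26.1% (15.6% to 40.3%), in 4 sites from codon 772 to codon 794. The IgG list had 2 coding cDNAs in ITGB5, both outside the tail. In ITGB1 all 72 coding PDCD4 cDNAs lay before the membrane segment, from codon 27 to codon 585. Its densest 100 nt, in exon 4, was used by both lists, with 18 PDCD4 and 9 IgG cDNAs. In ITGA3, 106 of 111 coding PDCD4 cDNAs of the canonical transcript lay before the segment. Over all transcripts ITGA3 had 135, and those in exon 26 that are coding in other transcripts only were not placed.

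**Figure D5:**
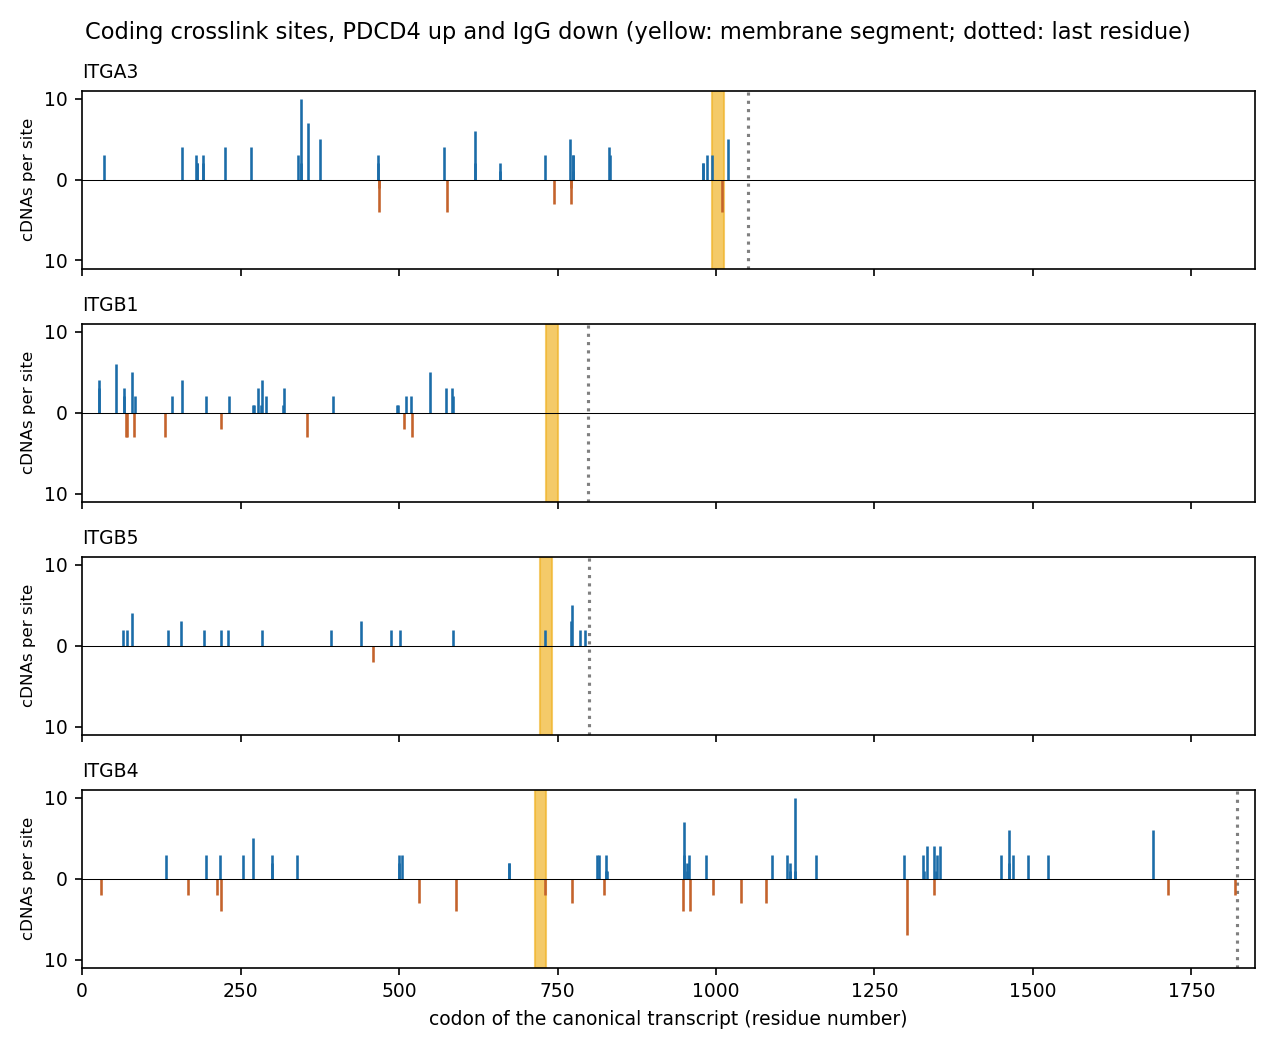
Coding crosslink sites of 4 integrins are placed by codon of the canonical transcript, with cDNAs per site upwards for PDCD4 (blue) and downwards for IgG (orange). Yellow marks the membrane segment and the dotted line the last residue. Most PDCD4 sites of ITGB4 lie in its long tail, while those of ITGB1 end at codon 585, before the segment.

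Few sites lay near the 3′ ends of exons in either list. Of 245 exonic PDCD4 sites in canonical transcripts, 11 (4.49%, 2.53% to 7.86%) lay in the last 60 nt of an exon before an intron, although 26.6% of the exonic positions lie there. In the IgG list 4 of 91 did (4.40%, 1.72% to 10.8%). The first 50 nt of exons after an intron held 79 of the 245 PDCD4 sites, 32.2% (26.7% to 38.3%), on 22.4% of the positions, and 24 of 91 IgG sites (26.4%, 18.4% to 36.3%). For beta chains this share was 43.1% (33.9% to 52.8%) in the PDCD4 list and for alpha chains 24.5% (18.2% to 32.1%).

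The cross-linked base was T at 44.4% of the integrin PDCD4 sites (40.3% to 48.7%), near the 46.7% of all PDCD4 sites. At the IgG sites of the same genes it was 38.6% (32.8% to 44.8%), below the 51.6% of all IgG sites. Intronic PDCD4 sites had T more often (50.2%) than exonic ones (38.8%). As a check for cDNAs of other genes, the 30 nt downstream of every integrin site were looked up in the transcripts of the annotation. An exact match in a different gene was found for 2 of 268 exonic and 11 of 263 intronic PDCD4 sites, and for 1 of 97 and 8 of 154 IgG sites. Among these are 3 neighbouring PDCD4 sites of ITGA3 intron 7, with 1, 5 and 3 cDNAs, whose sequence was found in 37 to 452 other genes.

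AGRN and DLG5 were the genes whose exonic and intronic sums in both lists were most like those of ITGA3, by distance over 4 log2 values among 7305 genes. AGRN, which encodes the basement membrane proteoglycan agrin, had 312 exonic and 250 intronic PDCD4 cDNAs against 68 and 73 in the IgG list, a log2 ratio of 1.42. DLG5 had 193 exonic and 177 intronic PDCD4 cDNAs against 27 and 91, a log2 ratio of 1.07.

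Genes around the integrins were taken by list. Of all genes compared, 16.4% had a log2 ratio of at least 1 and 16.1% one of -1 or less, with a median of -0.10, and the lists below were not tested against this. Among ligands, 7 of 12 genes with at least 20 cDNAs had a log2 ratio of at least 1 and none had -1 or less, with a median of 1.24. The highest were CCN1, a matricellular protein (80 against 7 cDNAs, 2.77), and the laminin chain LAMA5 (932 against 180, 1.798). The laminin chain LAMC1 was near the lower end of the list (135 against 103, -0.18). Of the 4 hemidesmosome partners 2 passed 1, plectin (PLEC, 4278 against 193 cDNAs, 3.90) and the tetraspanin CD151 (53 against 11, 1.60), while dystonin (DST, 0.25) and the collagen COL17A1 (0.64) did not.
Of 12 activators and adaptors of the cytoplasmic side, none had 1 or more and 2 had -1 or less, a share near that of all genes, with a median of -0.37. The 2 were the focal adhesion kinase PTK2 (191 against 277, -1.10) and the kindlin FERMT1 (32 against 45, -1.05), and the highest were talin (TLN1, 0.77) and vinculin (VCL, 0.19). In a further list 2 genes were compared, of which filamin A (FLNA) had 2.20 and tensin (TNS1) -1.24. Of 3 other tetraspanins 1 passed 1, CD82 (30 against 8, 1.22), with CD9 at 0.14 and CD81 at -0.96. Of 17 other integrin genes 8 had any site and 4 had 20 cDNAs. Of these, ITGA10 had 28 PDCD4 cDNAs and no IgG cDNA, a 6.30-fold higher share with 3 IgG cDNAs put in place of none. ITGB2, ITGB8 and ITGA1 had log2 ratios of 0.43, 0.35 and 0.21, with intervals that included 0.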

How the data were processed

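iCLIP of PDCD4 and of control IgG in MCF10A cells, 2 replicates each, was analysed from 1 pooled list per immunoprecipitation. Reads were mapped by the authors to the Ensembl release 88 genome (GRCh38) and analysed with iCount. They subtracted IgG crosslink sites from the PDCD4 replicates, merged replicates and called peaks. In the deposited lists, each 1-nt site has as its score an unnormalized count of cDNAs, which starts at 1, so the authors' filter on scores greater than 5 was not applied to the files. Alignment and duplicate settings are not given in the sources used here. The subtraction treats the lists unequally, and its part in the ratios was not tested.

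Sites were matched to genes by exact symbol in the authors' label. All 782 integrin sites lay inside the GENCODE release 44 gene (GRCh38) on its strand, and none carried several gene labels. Regions were assigned over all transcripts in the order coding, 3′UTR, 5′UTR, non-coding exon and intron. Exon and intron numbers, codons and distances to exon ends use the canonical transcript. Scores were summed per gene and divided by the total of the list, which was 409308 cDNAs for PDCD4 and 276139 for IgG. Log2 ratios have 1 cDNA added to each sum. Their intervals are conditional binomial (Clopper-Pearson) without it, shares have Wilson intervals, levels have Poisson intervals and differences of log2 ratios have normal intervals on the log scale. Genes with at least 20 cDNAs over both lists were compared. No p-value was computed. The ratios and their intervals were tested on simulated counts with Poisson error only, the error that the intervals assume. This checked the calculation and cannot show how well the intervals cover real counts.

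Members and lists were chosen with earlier results of these data known. The genes named with values are the 9 integrins, the 3 genes most like the leading one, the 2 highest and 2 lowest of each pathway list and cell type markers, except for some that are not reported here. Sequences follow the highest exonic site with a score greater than 5 of each integrin and the highest intronic one of 3 integrins. The tools were scipy 1.17.1, pandas 2.3.3, numpy 2.4.6 and matplotlib 3.10.9 under Python 3.11.15.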

Additional observations from a re-analysis of the deposited data

How the results depend on the processing

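No paired analysis was possible because each list pools its replicates, so that replicate numbers cannot be matched and no replicate could be left out. Of 89 values of the comparisons recomputed under the alternatives, 60 stayed within the main counting interval, or within 1.5 times the main count. Another 25 moved, and 4 whose main interval excluded 0 changed sign. Sign changes of values with a main interval that included 0, such as beta minus alpha, were counted as stayed or moved. Over sites with a score greater than 5 the summed log2 ratio was 0.060, that of the beta chains -0.37, beta minus alpha -0.87, the exonic ratio 1.23 and the intronic ratio -2.06. The number of integrins at 1 or more was then 1 of the 4 with such a site. The exonic percent was 85.7 for PDCD4 and 35 for IgG, and the log2 exonic over intronic density 5.51 and 2.03. These rest on 84 PDCD4 and 20 IgG cDNAs, and ITGB4 itself turned to -0.59. With a single transcript per gene the exonic percent of PDCD4 was 46.3 and the densities were 3.59 (PDCD4) and 3.07 (IgG). Without ITGB4 the summed ratio was 0.48, the beta chains 0.19, beta minus alpha -0.42, the intronic ratio -0.078, the exonic percent of PDCD4 58.0 and its density 3.44. Leaving out the last 60 nt of exons raised the PDCD4 density to 3.13. Over the exonic total of each list, exonic cDNAs gave 0.42 for the sum, 0.42 for alpha and 0.42 for beta chains. Leaving out ITGA3, an alternative chosen after seeing the data, gave 0.42 for the sum, -0.23 for alpha chains, 0.99 for beta minus alpha, 0.60 for exons, an exonic percent of 45.7 and a density of 2.7999 in PDCD4. Beta minus alpha over intronic cDNAs, also recomputed without ITGB4 after seeing the data, turned from 0.43 to -0.74. Of 58 values for single integrins 49 stayed, 8 moved and 1 whose main interval excluded 0 changed sign, counted in the same way. Where not set by the genes or sites left out, the cause was not tested. Genes with about 30 cDNAs per list have intervals over 1 log2 unit wide, so that smaller differences were not detectable.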
